A study of Mus musculus with 7 samples.

Results

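Nitric oxide synthase 1 (Nos1), the syntrophins Sntb1 and Sntb2 and the dystrobrevin gene Dtna were followed in mouse tibialis anterior, a large leg muscle in front of the shin, which had been cut into cryosections in order. The 4 genes were chosen by name, and each had 1 row in all 7 count tables, among 53083 genes that the tables share. Dystrophin holds a group of proteins at the muscle fibre membrane, called the dystrophin complex. Syntrophins are adaptor proteins of that complex, and dystrobrevin is a relative of dystrophin that binds them. Through its PDZ domain the neuronal nitric oxide synthase encoded by Nos1 binds a syntrophin, which places the enzyme at the fibre membrane, where nitric oxide acts on blood flow and contraction through cyclic GMP.

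The labels give 3 DMD muscles, 2 WT muscles and 2 Ctr muscles, numbered here as in the labels, and the series title names Duchenne muscular dystrophy. The file headers carry the words mdx for DMD, pax7 for WT and hDMD for Ctr, which the labels do not explain. Genotype, strain, age and sex are not stated in the labels, nor whether the muscles came from separate animals. P-values therefore measure only the spread between these samples. PolyA RNA of single sections was primed with a section barcode and a molecular identifier. Of 525 sections, 422 had enough counts to be used (192 DMD, 114 WT and 116 Ctr).

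Total counts per muscle over the used sections were 11181193 to 41405728 in DMD, 18267543 and 23115560 in WT, and 12223812 and 15574830 in Ctr. All 6 genes fixed as markers of skeletal muscle fibres, such as Acta1 and Ckm, were detected in every muscle. Their summed level, not scaled further, was 59600 to 69430 CPM (counts scaled to a common total) in DMD, 42810 and 52480 CPM in WT, and 62500 and 73510 CPM in Ctr. After TMM scaling (a correction for library composition), Dmd, which encodes dystrophin, averaged 11.3 ± 3.03 CPM in DMD, 14.7 ± 2.18 CPM in WT and 12.7 ± 4.50 CPM in Ctr (SD, n = 3, 2 and 2). Without that scaling it had 13.0, 19.8 and 9.68 CPM in DMD, 13.1 and 8.81 CPM in WT, and 9.95 and 15.3 CPM in Ctr. The groups overlapped on both scales, and the order of DMD and WT turned between them. The share of mitochondrially encoded counts was 25.7 to 34.3% in DMD, 41.6 and 45.9% in WT, and 29.4 and 30.4% in Ctr. TMM factors were 0.983 to 1.41 in DMD, 0.804 and 0.669 in WT, and 1.04 and 0.962 in Ctr, so WT stood apart in both measures. Levels of single genes per muscle below are TMM-scaled unless stated otherwise, and summed marker levels and levels of sections are not. The headers name different gene annotations for counting WT and for counting DMD and Ctr. In every comparison with WT, the group, the annotation and any batch that goes with it cannot be told apart.

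By the files' annotation (GRCm38), Nos1 lies at chr5:117781032-117958840 on the plus strand with 11151 exonic bases. Sntb1 lies at chr15:55636388-55906949 on the minus strand with 5324 exonic bases, and Sntb2 at chr8:106935750-107019714 on the plus strand with 10350. No other gene overlapped exons of the 4 genes on the same strand in the annotation of the WT tables. Values that were not whole, from reads split between places or genes, made up 56.2 to 64% of the sections with Nos1 counts in WT, against 18.2 and 24.6% in Ctr. In DMD the shares were 44.6, 6.45 and 8.33%. The part of these split reads in the Nos1 levels was not tested.

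A promoter was at hand in the RefSeq table (GRCm38.p6) for 1 of the 4 genes, Nos1, which was called lower in DMD against both other groups after TMM scaling. The window at chr5:117866589-117866888, plus strand, runs from 250 bases before the annotated start to 50 bases after it. It is printed with matches to CANNTG in capitals, the E-box, which muscle regulatory factors of the MyoD family are known to bind.
Nos1: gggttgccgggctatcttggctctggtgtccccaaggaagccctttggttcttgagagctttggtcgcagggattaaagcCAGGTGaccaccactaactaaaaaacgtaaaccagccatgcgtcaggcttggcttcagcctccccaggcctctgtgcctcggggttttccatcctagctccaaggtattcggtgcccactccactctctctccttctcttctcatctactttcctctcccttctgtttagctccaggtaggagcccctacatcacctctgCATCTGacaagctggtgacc
The 2 matches begin at positions -170 and 31, counted from the start. The pattern CANNTG, though not each match to it, reads the same on both strands. Of 32851 promoters of this length, 72.3% hold at least 1 match, with 39.6% holding at least 2. The letters of the N-box CCGGAA, searched on both strands, were not in this window, and 14.9% of promoters hold them. The annotated start lies inside the span that the files give for Nos1, so other first exons lie before it, and counts per gene do not say which start was used.

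Nos1 was the member with the clearest difference between muscles. In DMD muscles 1, 2 and 3 its level was 21.1, 32.3 and 38.2 CPM after TMM scaling, from 1228, 483 and 876 counts. In WT muscles 1 and 2 it was 67.2 and 49.7 CPM, and in Ctr muscles 1 and 2 it was 149 and 110.3 CPM. Every DMD muscle was below both WT muscles, and both WT muscles were below both Ctr muscles, without overlap. In bulk sections, fewer fibres with Nos1 RNA and less of it per fibre cannot be told apart.

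Against Ctr, Nos1 was 4.26-fold lower in DMD. Group means were 30.5 ± 8.70 CPM in DMD and 129.7 ± 27.3 CPM in Ctr (SD, n = 3 and 2), and the log2 fold was -2.09 ± 0.28 (SE). Its adjusted p was 0.0048 in edgeR's quasi-likelihood test with Benjamini-Hochberg adjustment over 13746 genes. Calls here mean an adjusted p under 0.05, and in this comparison 12.7% of all genes tested were called, 5.49% as lower and 7.17% as higher. Nos1 was the 1 member of 4 called. The adjusted p became 0.055 when Ctr muscle 1 was left out, with a log2 fold of -1.86.

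Against WT, the group that stood apart in mitochondrial share and TMM factor, Nos1 was 1.92-fold lower in DMD (30.5 ± 8.70 CPM in DMD and 58.5 ± 12.4 CPM in WT; SD, n = 3 and 2). The log2 fold was -0.94 ± 0.28 with an adjusted p of 0.047 in the same edgeR fit, just inside the threshold, and the part of the mitochondrial share in it was not tested beyond a fit without mitochondrial genes (log2 fold -0.93, adjusted p = 0.048). Here 15.2% of all genes tested were called, 6.92% as lower and 8.25% as higher, and 2 of the 4 members were among them, Nos1 and Sntb1. The Nos1 call depended on the scaling. With no scaling beyond total counts, DMD muscles 1, 2 and 3 had 29.7, 43.2 and 37.5 CPM against 54.0 and 33.2 CPM in WT, so the groups overlapped, and the log2 fold was -0.25 (adjusted p = 0.49, edgeR). That setting moves the median log2 fold of all genes from 0.07 to 0.82. Leaving out DMD muscle 1, DMD muscle 2, WT muscle 1 or WT muscle 2 gave adjusted p-values of 0.097, 0.085, 0.31 and 0.18 in edgeR.

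Between WT and Ctr, Nos1 had a log2 fold of -1.15 ± 0.31 and an adjusted p of 0.11 in edgeR, which did not pass the threshold, although the muscles of the groups did not overlap. In this comparison 0.364% of all genes tested were called, and 0 of the 4 members were. Across all genes 2481 had an unadjusted p under 0.05, Nos1 among them. DESeq2 gave Nos1 an adjusted p of 0.015. The order of levels was thus DMD, WT and Ctr from low to high, and the step between WT and Ctr passed in some fits and not in the one used throughout.

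**Figure D1:**
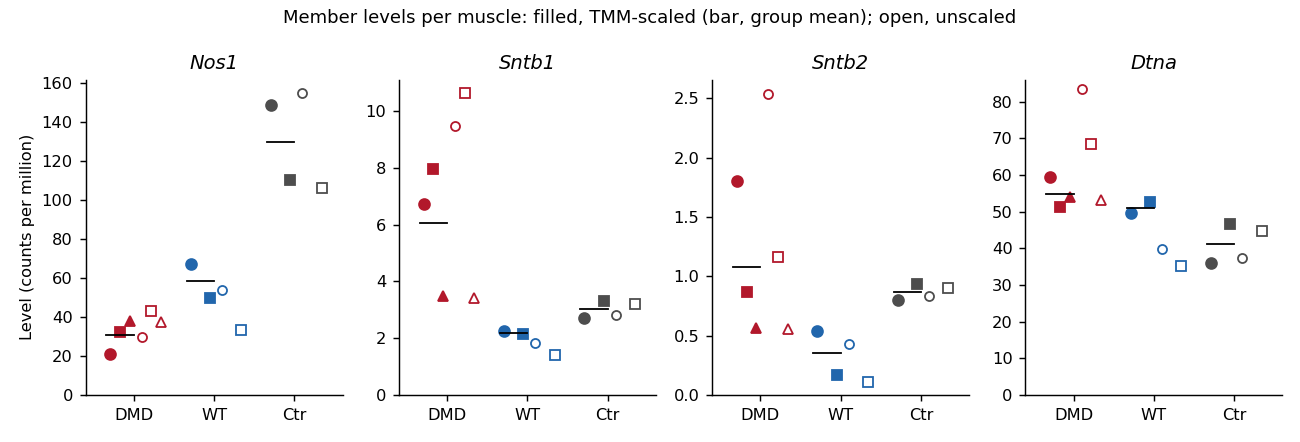
Levels of Nos1, Sntb1, Sntb2 and Dtna in CPM in each DMD, WT and Ctr muscle; circle, square and triangle are muscles 1, 2 and 3. Filled points are TMM-scaled with the group mean as a bar, and open points are unscaled: filled Nos1 points lie at 21.1 to 38.2 in DMD, 49.7 and 67.2 in WT, and 110.3 and 149 in Ctr.

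Sntb1 encodes beta-1-syntrophin. Its level was 6.72, 7.95 and 3.49 CPM in DMD muscles 1, 2 and 3, 2.26 and 2.13 CPM in WT, and 2.71 and 3.32 CPM in Ctr. Counts were 392, 119 and 80 in DMD, 42 and 26 in WT, and 44 and 39 in Ctr. All 3 DMD muscles were above all 4 others, but DMD muscle 3 lay close to Ctr muscle 2.

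Against WT, Sntb1 was 2.74-fold higher in DMD (6.06 ± 2.31 CPM in DMD and 2.20 ± 0.0935 CPM in WT; SD, n = 3 and 2). The log2 fold was 1.45 ± 0.36 with an adjusted p of 0.028 in edgeR. Without DMD muscle 1, DMD muscle 2, WT muscle 1 or WT muscle 2 the adjusted p-values were 0.073, 0.066, 0.18 and 0.20. Against Ctr the log2 fold was 1.01 ± 0.35 with an adjusted p of 0.084 in edgeR, which did not pass. It passed when DMD muscle 3 was left out (log2 fold 1.28, adjusted p = 0.0054). WT against Ctr gave -0.45 ± 0.40 (adjusted p = 0.60, edgeR).

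Markers of other cells also differed between the DMD muscles. The summed level of the 12 macrophage markers, not TMM-scaled, was 1687, 1409 and 233 CPM in DMD muscles 1, 2 and 3, 67.9 and 67.7 CPM in WT, and 78.0 and 113.1 CPM in Ctr. All 12 were detected in every muscle, and 12 were called higher in DMD than in WT, and 11 than in Ctr. Of all genes tested, 8.25 and 7.17% were called higher in these comparisons. The 8 regenerating fibre markers summed to 279, 272 and 93.7 CPM in DMD, 41.2 and 17.4 CPM in WT, and 37.2 and 43.1 CPM in Ctr, with Mymx at 0 in all 4 WT and Ctr muscles. The 6 fibrotic matrix genes summed to 1615, 1504 and 505 CPM in DMD, 206 and 242 CPM in WT, and 57.0 and 160.7 CPM in Ctr. DMD muscle 3 was thus the lowest DMD muscle in Sntb1, with or without TMM scaling, and in all 3 lists. Without TMM scaling this was not particular to these lists. Most other lists had their lowest unscaled DMD sum in muscle 3 too. In DMD muscles 1, 2 and 3 the skeletal muscle fibre markers had 62990, 69430 and 59600 CPM, and the endothelial markers 321, 490 and 240 CPM. The nitric oxide and cyclic GMP pathway list was the exception (2864, 2653 and 2772 CPM). After TMM scaling, every macrophage and matrix marker was still lowest in muscle 3 among the DMD muscles. So was every regenerating fibre marker except Myh8 and Myod1. The skeletal muscle fibre markers other than Tnnt3 were instead highest there, such as Acta1 (12290, 16880 and 22000 CPM in DMD muscles 1, 2 and 3). The part of macrophages, regenerating fibres and matrix in the Sntb1 level was not tested.

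A fit on the 20% of sections poorest in macrophage markers in each muscle, chosen after the data had been seen, gave Nos1 a log2 fold of -1.60 against Ctr (adjusted p = 0.011, edgeR). Against WT, Nos1 had -0.89 (adjusted p = 0.11) and Sntb1 had 1.93 (adjusted p = 0.17) in these sections.

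Sntb2, the gene of beta-2-syntrophin, was close to the limit of counting. Counts were 105, 13 and 13 in DMD, 10 and 2 in WT, and 13 and 11 in Ctr, which is 1.80, 0.869 and 0.567 CPM in DMD, 0.539 and 0.164 CPM in WT, and 0.802 and 0.937 CPM in Ctr. DMD muscle 1 stood above the other muscles, and the remaining DMD muscles lay within the range of Ctr and WT or between them. No comparison passed in the fit used throughout: the log2 fold was 0.39 ± 0.57 against Ctr (adjusted p = 0.68) and 1.58 ± 0.64 against WT (adjusted p = 0.12) in edgeR. Against WT it passed with total counts only (2.35, adjusted p = 0.029), with no filter (1.64, adjusted p = 0.026) and without DMD muscle 3 (1.91, adjusted p = 0.029). The fold against Ctr was -0.29 without DMD muscle 1. Between WT and Ctr the log2 fold was -1.19 ± 0.73 (adjusted p = 0.43).

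Dtna encodes alpha-dystrobrevin and spans chr18:23415135-23659715 on the plus strand, with 16930 exonic bases. Its level was 59.3, 51.2 and 54.1 CPM in DMD, 49.5 and 52.5 CPM in WT, and 35.9 and 46.7 CPM in Ctr. DMD and WT overlapped, and both lay above Ctr. The log2 fold was 0.41 ± 0.20 in DMD against Ctr (adjusted p = 0.19, edgeR), 0.11 ± 0.20 in DMD against WT (adjusted p = 0.74) and 0.31 ± 0.21 in WT against Ctr (adjusted p = 0.49). None passed. Without scaling, Dtna had 83.5, 68.5 and 53.1 CPM in DMD, 39.8 and 35.1 CPM in WT, and 37.4 and 44.8 CPM in Ctr. The fold against WT was then 0.87 with an adjusted p of 0.026, near the shift of all genes under that setting.

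**Figure D2:**
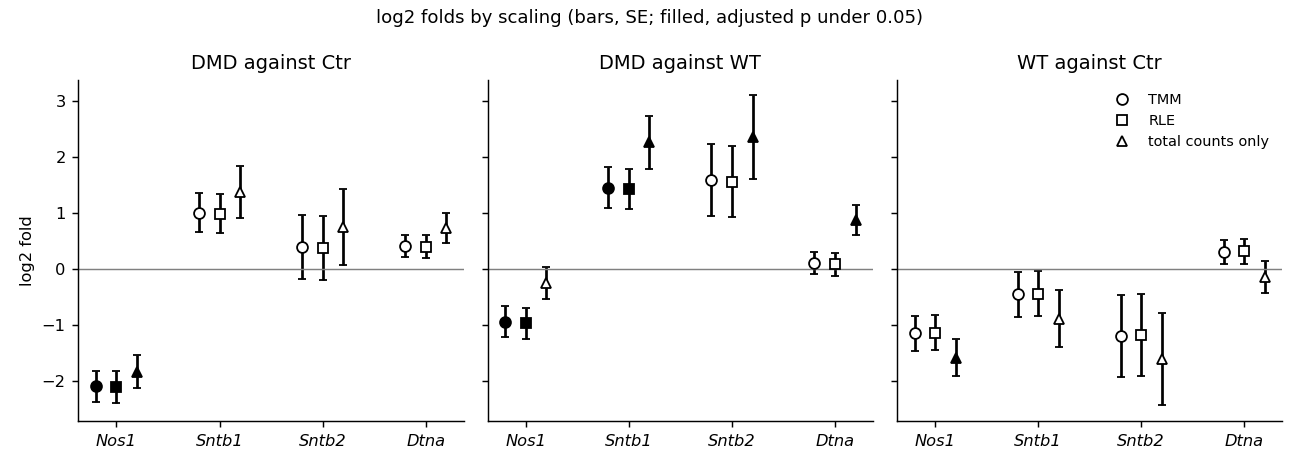
log2 folds of the 4 members in DMD against Ctr, DMD against WT and WT against Ctr, under TMM, RLE (the size factors of DESeq2) and total-count scaling; bars are SE and filled symbols have an adjusted p under 0.05. Nos1 against Ctr stays between -2.10 and -1.83, and Nos1 against WT moves from -0.94 under TMM to -0.25 with total counts only.

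Genes around the 4 members were taken from 3 lists. Of 17 further genes of the dystrophin complex or of proteins that bind its members, 14 had enough counts to be tested. Sntg1, Sntg2 and Nos1ap did not. In DMD against Ctr 0 of 14 were called in edgeR, beside 12.7% of all genes tested. The median log2 fold was 0.04 beside 0.02 for all genes tested. In DMD against WT 1 was called, lower, beside 15.2% of all genes tested (6.92% as lower). The median there was -0.15 beside 0.07. WT against Ctr had 0 called, beside 0.364% of all genes tested. Utrn, the gene of the dystrophin relative utrophin, averaged 17.3 ± 2.16 CPM in DMD, 12.5 ± 1.04 CPM in WT and 16.9 ± 1.64 CPM in Ctr (SD, n = 3, 2 and 2). DMD overlapped Ctr and lay above WT without overlap, with a log2 fold against WT of 0.46 ± 0.20 (adjusted p = 0.14, edgeR). With total counts only that fold was 1.21 (adjusted p = 0.0082), beside the shift of all genes under that setting.

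The called gene of that list was Dtnbp1, which encodes dysbindin, a protein named for its binding to dystrobrevin. It had 31.1, 24.3 and 24.9 CPM in DMD, 51.8 and 64.9 CPM in WT, and 50.5 and 38.2 CPM in Ctr. After TMM scaling all DMD muscles lay below the other 4. Against WT the log2 fold was -1.12 ± 0.21 (adjusted p = 0.014, edgeR), and without scaling it was -0.34 (adjusted p = 0.34). Against Ctr it was -0.73 ± 0.22 with an adjusted p of 0.052.

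Of 16 genes of the nitric oxide and cyclic GMP pathway, 14 were tested, and Arg1 and Arg2 were not. In DMD against Ctr 1 was called higher and 0 lower, beside 7.17% and 5.49% of all genes tested. The median log2 fold was -0.08 beside 0.02 for all genes tested. In DMD against WT 1 was called higher and 1 lower, beside 8.25% and 6.92% (median -0.01 beside 0.07). In WT against Ctr 0 were called, beside 0.364%. Ddah1, which breaks down an inhibitor of nitric oxide synthases, was the higher one both times. It had 14.0, 14.3 and 14.4 CPM in DMD, 6.79 and 6.23 CPM in WT, and 4.44 and 7.66 CPM in Ctr, with all DMD muscles above the other 4. The log2 fold was 1.25 ± 0.25 against Ctr (adjusted p = 0.018, edgeR) and 1.13 ± 0.25 against WT (adjusted p = 0.021), and both passed under each scaling.

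Prkg1, a protein kinase that cyclic GMP switches on, was the lower one against WT. It had 5.16, 6.55 and 3.79 CPM in DMD, 12.01 and 12.94 CPM in WT, and 5.80 and 8.51 CPM in Ctr, so DMD lay below WT and overlapped Ctr. The log2 fold against WT was -1.28 ± 0.26 (adjusted p = 0.018, edgeR) and was -0.48 without scaling (adjusted p = 0.27).

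All 8 genes listed as binding partners of syntrophins were tested. Called higher in DMD were 2 against Ctr and 2 against WT, with 0 lower, and 0 were called in WT against Ctr. Of all genes tested, 7.17 and 8.25% were called higher in DMD against Ctr and WT, and 0.364% were called in WT against Ctr. The medians of the list were -0.13 in DMD against Ctr and -0.13 in DMD against WT, beside 0.02 and 0.07 for all genes tested. Abca1, a cholesterol transporter, had 23.9, 23.2 and 22.7 CPM in DMD, 8.83 and 9.50 CPM in WT, and 8.51 and 9.03 CPM in Ctr. Dgkz, a diacylglycerol kinase, had 14.5, 14.97 and 14.3 CPM in DMD, 4.85 and 5.57 CPM in WT, and 6.72 and 7.32 CPM in Ctr. Both genes separated the 3 DMD muscles from the other 4 with a wide gap. For Abca1 the log2 fold was 1.41 ± 0.19 against Ctr (adjusted p = 0.0050, edgeR) and 1.35 ± 0.19 against WT (adjusted p = 0.0044). Dgkz had 1.06 ± 0.20 against Ctr (adjusted p = 0.015) and 1.49 ± 0.20 against WT (adjusted p = 0.0040). The DMD muscles are shared by these comparisons.

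**Figure D3:**
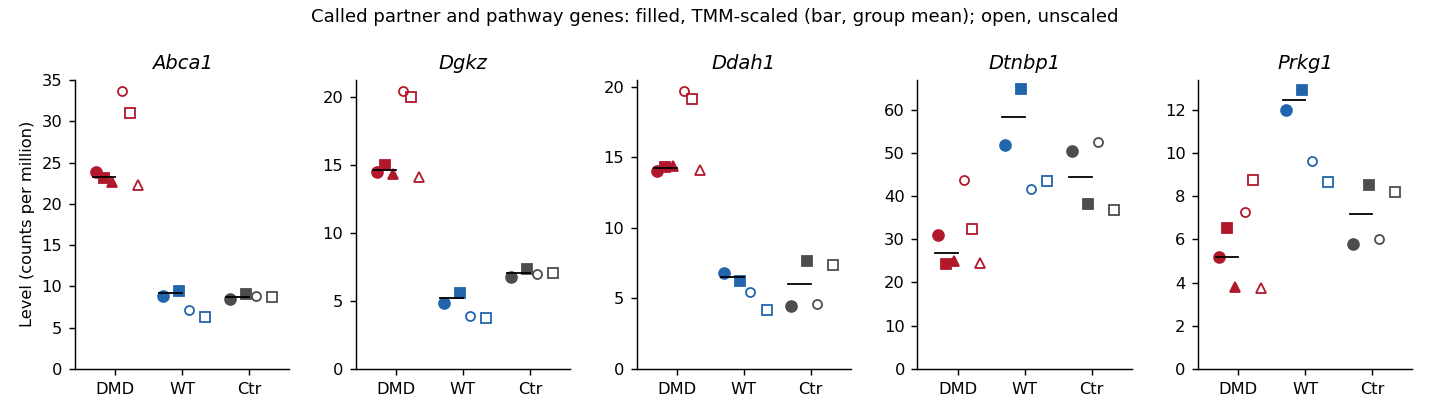
Levels in CPM of the 5 called genes of the 3 lists in each DMD, WT and Ctr muscle, TMM-scaled (filled, bar for the group mean) and unscaled (open). Abca1 lies at 22.7 to 23.9 in DMD and at 8.51 to 9.50 in the other 4 muscles after scaling.

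For each member the 3 most similar genes were sought over 35 sums, the 7 muscles by 5 consecutive stretches of the section order, among 2734 genes with a mean of at least 20 CPM. The measure was Pearson's r of log2 (CPM plus 1) without further scaling. Stretches of 1 muscle share a library, and differences between muscles enter the r. For Nos1 they were Hk2 (r = 0.96), a hexokinase that starts glucose use in muscle, Trim54 (r = 0.93), a ring finger protein of the sarcomere, and Vldlr (r = 0.93), a lipoprotein receptor. After TMM scaling, Hk2 had 73.9, 84.7 and 89.5 CPM in DMD, 160.8 and 149 CPM in WT, and 452 and 278 CPM in Ctr. Trim54 had 42.1, 49.8 and 59.3 CPM in DMD, 82.7 and 84.3 CPM in WT, and 168 and 131 CPM in Ctr. Both had the order DMD, WT, Ctr that Nos1 had, as did Vldlr. As the genes were picked for likeness to Nos1 in these same muscles, a shared order follows largely from the choice. Vldlr had 44.9, 57.9 and 86.4 CPM in DMD, 134 and 97.5 CPM in WT, and 157 and 165 CPM in Ctr. Without scaling, DMD and WT muscles overlapped in all 3 genes, as they did in Nos1.

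**Figure D4:**
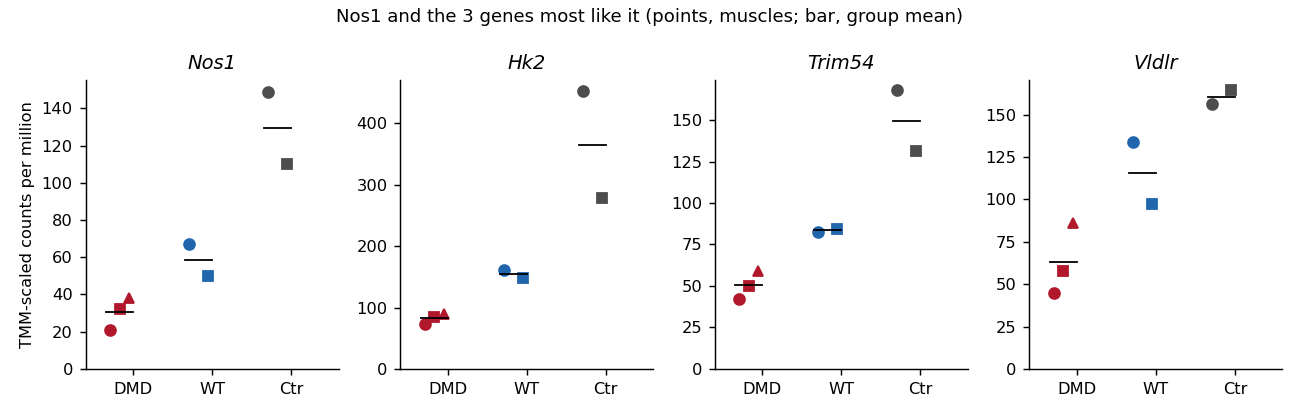
TMM-scaled levels in CPM of Nos1, Hk2, Trim54 and Vldlr in each DMD, WT and Ctr muscle, with the group mean as a bar. Hk2, Trim54 and Vldlr were chosen for likeness to Nos1 in these same muscles. In all 4 genes the DMD muscles lie lowest and the Ctr muscles highest (without scaling, DMD and WT overlap), for example 73.9 to 89.5 for Hk2 in DMD against 278 and 452 in Ctr.

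Genes most like Sntb1 were Pea15a, Apoe and Snd1 (r = 0.89 each). Apoe, the apolipoprotein E gene, had 422, 355 and 117.4 CPM in DMD, 42.7 and 48.2 CPM in WT, and 35.8 and 68.0 CPM in Ctr. It had its lowest DMD value in muscle 3, as Sntb1 and the macrophage markers did, and as most other lists did without scaling. Apoe was chosen for likeness to Sntb1 in these same muscles. For Dtna they were Actg1, a cytoplasmic actin gene, Apoe and Aebp1 (r = 0.91 each). For Sntb2, with few counts in most stretches, they were the ribosomal protein genes Rpsa (r = 0.80) and Rpl23 (r = 0.78) and Pabpc1 (r = 0.78).

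Neighbouring sections were more alike than distant ones, with a mean correlation of 0.0861 to 0.346 over abundant genes in the 7 muscles. Sections 40 apart had -0.262 to -0.0426. Total counts also changed along the order, and their part in this likeness was not tested. Nos1 level and section total had a Spearman rho of -0.37 in WT muscle 2 and -0.40 and -0.32 in Ctr muscles 1 and 2. In the other muscles it was -0.0922 to 0.0826. Levels in 5 equal stretches of this order were not scaled beyond total counts, and their 95% Poisson intervals cover counting error only. Nos1 was present in every Ctr stretch at 87.0 to 176 CPM, above every stretch of the DMD (24.7 to 63.3 CPM) and WT muscles (22.2 to 62.1 CPM). In DMD muscle 1 it had 24.7 CPM (interval 21.1 to 28.7) in the first stretch and 37.0 CPM (32.4 to 41.9) in the last. In DMD muscle 2 it had 26.9 CPM (20.6 to 34.4) in the middle stretch and 63.3 CPM (52.5 to 75.7) in the last. DMD muscle 3 ran the other way, with 46.1 CPM (39.8 to 53.2) in the first and 28.2 CPM (22.3 to 35.1) in the last. The profile along DMD muscles was not shared, and the labels do not say which end is which.

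The highest stretch of Dtna was 1.13 to 1.47-fold above the lowest in the 7 muscles. In DMD muscle 1 it had 94.4 CPM (87.3 to 102) in the first stretch and 70.8 CPM (64.5 to 77.5) in the last. Sntb1 had 6.28 CPM (4.54 to 8.46) in the first and 15.1 CPM (12.3 to 18.4) in the last stretch of DMD muscle 1, and 6.45 CPM (3.53 to 10.8) and 15.8 CPM (10.7 to 22.6) in those of DMD muscle 2. DMD muscle 3 had 2.14 to 4.92 CPM, with its highest level in stretch 4 and its lowest in stretch 5. The highest stretch of Sntb1 was 2.41, 2.45 and 2.30-fold above the lowest in DMD muscles 1, 2 and 3, and 7.49 and 4.59-fold in Ctr muscles 1 and 2, where the lowest stretch held 2 counts each. Sections with any Sntb1 count were 63 of 65, 49 of 67 and 34 of 60 in DMD muscles 1, 2 and 3, 21 of 50 and 21 of 64 in WT, and 26 of 61 and 27 of 55 in Ctr. Sntb2 was counted in 50, 11 and 13 sections of the DMD muscles, 9 and 2 of the WT muscles and 13 and 8 of the Ctr muscles.

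**Figure D5:**
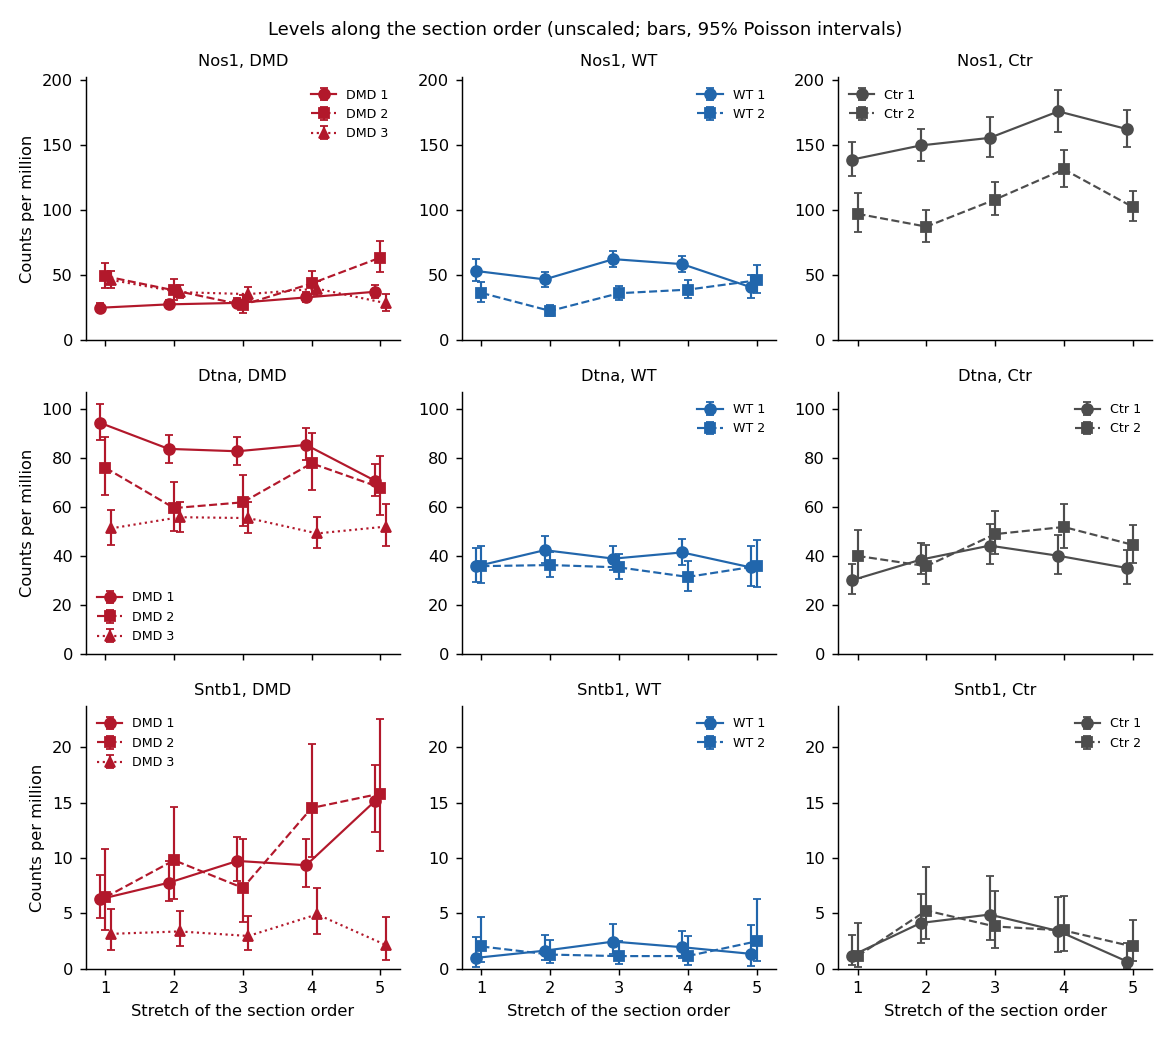
Levels of Nos1, Dtna and Sntb1 in CPM, unscaled, in each of 5 stretches of the section order of every DMD, WT and Ctr muscle, with 95% Poisson intervals. Ctr stretches of Nos1 (87.0 to 176) lie above all DMD and WT stretches, and Sntb1 is highest in the last stretch of DMD muscles 1 and 2.

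Sections were also compared within muscles, with the muscle as a term in edgeR. The 20% of sections richest in synaptic, tendon, macrophage or type 2A and slow fibre markers, and the first and last 20% in order together, were each set against the rest. Dystrobrevin and syntrophins are known from the neuromuscular junction as well as from the rest of the fibre membrane. Averaged over the 3 groups, the log2 fold in synaptic-marker-rich sections was -0.03 ± 0.07 for Nos1, 0.38 ± 0.17 for Sntb1, 0.27 ± 0.41 for Sntb2 and -0.09 ± 0.07 for Dtna. In this contrast 0 of the 4 members were called, and 0.0595% of all genes tested were. Sntb1 was higher in synaptic-marker-rich sections in 7 of 7 muscles, with 10.9, 11.5 and 4.39 CPM against 9.34, 10.7 and 3.06 CPM in the remaining sections of DMD muscles 1, 2 and 3. WT had 2.80 and 1.64 CPM against 1.29 and 1.23 CPM, and Ctr 3.56 and 3.52 CPM against 2.82 and 3.08 CPM. Its unadjusted p was 0.045 and its adjusted p 0.92.

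In tendon-marker-rich sections 0 of the 4 members were called, with 1.66% of all genes tested called. Dtna had a log2 fold of -0.21 ± 0.08 there (adjusted p = 0.21) and Nos1 of 0.05 ± 0.07. In macrophage-marker-rich sections of DMD muscles 0 of 4 were called and 1.14% of all genes. Nos1 had -0.24 ± 0.12 (adjusted p = 0.32), with 36.7, 30.9 and 34.2 CPM in the rich sections and 28.4, 45.6 and 38.5 CPM in the others of DMD muscles 1, 2 and 3, so muscle 1 ran against the other 2. Dtna had -0.30 ± 0.13 (adjusted p = 0.25), with a ratio above 0 in DMD muscle 3 (0.12) and below 0 in muscles 1 and 2 (-0.26 and -0.20, log2). The fitted fold of Dtna lay below the ratio of every DMD muscle. Fits of sections were TMM-scaled, whereas levels and ratios of single muscles were not, so they are not on 1 scale. Sntb1 had 0.12 ± 0.21 (adjusted p = 0.83), with 0.81 in DMD muscle 1 and -0.18 and -0.12 in muscles 2 and 3. Type 2A and slow-marker-rich sections had 0 of 4 members called and 0.0543% of all genes, with Nos1 at 0.06 ± 0.05 and Dtna at 0.07 ± 0.05.

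End sections had 0 of 4 members called on average over the groups, beside 0.514% of all genes, and the log2 fold of Sntb1 was -0.64 ± 0.21 (adjusted p = 0.32, edgeR). In the Ctr muscles taken alone, a contrast singled out after its value was seen, Sntb1 was called lower at the ends. It had 4 and 8 counts at the ends (0.657 and 1.69 CPM) and 40 and 31 counts in the middle (4.22 and 4.13 CPM). The log2 fold was -1.87 ± 0.41 (adjusted p = 0.037), and 0.326% of all genes tested were called. DMD had 10.6, 10.9 and 2.74 CPM at the ends and 8.92, 10.5 and 3.72 CPM in the middle. WT had 1.14 and 2.09 CPM at the ends and 2.02 and 1.22 CPM in the middle. The difference of the DMD effect from the mean of WT and Ctr was 1.001 ± 0.34 with an adjusted p of 0.996. The call in Ctr was lost with the first and last 10% or 30% as ends and without either Ctr muscle.

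This was the 1 call in 100 tests of members over 25 section contrasts, of which 9 had an unadjusted p under 0.05. No member's section effect in DMD was called different from the mean of WT and Ctr in any of the 5 kinds of section, where 0% (synaptic, macrophage and slow), 0.102% (tendon) and 0.0408% (ends) of all genes were. A p above the threshold does not show that levels were alike, and for Sntb1 and Sntb2 the counts per section limit what could be seen.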

How the data were processed

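The deposited tables hold 1 column per cryosection, in expected counts: per the file headers, featureCounts 2.0.1 divided multi-mapped and multi-overlapping reads into fractions by strand. Per the submitters' processing notes, STAR 2.7.7a and GRCm38 were used. The 53083 genes that all 7 tables list once with equal exon length were kept. Sections needed a total of at least 1000 and of at least 20% of their muscle's median. Kept sections were summed per muscle or region and rounded, and the muscle was the replicate.

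Tests used edgeR 4.0.16 in R 4.3.3 (filterByExpr, TMM, quasi-likelihood F test over all 7 muscles, Benjamini-Hochberg). All 4 members passed the filter. The ± of a log2 fold is an approximate SE, its absolute value over the square root of F. Region scores were mean z-scores of log2 (CPM plus 10). DESeq2 1.42.0, RLE scaling, other filters, a replicate block and leaving out each muscle were alternatives. The code was tested on simulated data.

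Members and lists were chosen with earlier results of these data known. Genes named with values were the members, called list genes, and the 3 most similar genes per member; Utrn and Dmd were added after their values were seen. Values of 1 further gene are not reported here.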

Additional observations from a re-analysis of the deposited data

Results flagged for a closer look

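Within single muscles, 3 section ratios had opposite signs in all muscles of 2 groups, and these differences were not tested as such. They were picked by sign alone, after a search of Nos1, Sntb1 and Dtna in every kind of section and every pair of groups. With 2 or 3 muscles per group, some such sign patterns can arise by chance in a search of this kind. The 3 ratios are therefore not taken as differences between groups. The ratios are log2 of the unscaled level in the chosen sections over the remaining sections, with 0.5 counts added. Sntb2 was left out for its low counts. For Dtna in synaptic-marker-rich sections the mean was 0.0941 in WT and -0.0992 in Ctr, a difference of 0.193. For Sntb1 in type 2A and slow-marker-rich sections it was -0.46 in WT and 0.498 in Ctr, a difference of -0.958, from 7 and 4 counts in the rich sections of WT and 9 and 12 in those of Ctr. For Nos1 in end sections it was 0.252 in DMD and -0.089 in Ctr, a difference of 0.341; the tested contrast of DMD with the mean of WT and Ctr was 0.22 ± 0.14 (adjusted p = 1, edgeR).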

How the results depend on the processing

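Nos1 in DMD against Ctr kept its direction in every alternative and passed in all but 1, without Ctr muscle 1; leaving out 1 muscle gave -2.30 to -1.86. Leave-one-out ranges in DMD against WT were -1.15 to -0.71 for Nos1, 1.25 to 1.73 for Sntb1 and 0.86 to 2.75 for Sntb2. In DMD against Ctr they were 0.80 to 1.28 for Sntb1 and -0.29 to 0.74 for Sntb2. Where 1 muscle of a group remained, it was assumed to vary like the other groups. With 1 muscle left out, the number of genes called ranged from 56 to 3425 in DMD against Ctr, 68 to 3595 in DMD against WT and 2 to 97 in WT against Ctr.

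With total counts only (added after seeing the data), DMD against WT gave Nos1 -0.25, Sntb2 2.35, Dtna 0.87 and 5148 genes called. WT against Ctr then gave Nos1 -1.58, Dtna -0.13 (reversed) and 213 genes. Under that scaling 85.8, 97.2 and 7.51% of calls were higher in DMD against Ctr, DMD against WT and WT against Ctr, beside 56.6, 54.4 and 46% with TMM. With no filter on low counts, Sntb1 in DMD against Ctr was 1.048, Sntb2 in DMD against WT 1.64 and Nos1 in WT against Ctr -1.16, all past the threshold, with 2999, 3208 and 860 genes called. DESeq2 passed Nos1 in WT against Ctr (-1.14; 460 genes). With sections scaled to 1 total, Sntb1 in DMD against WT missed the threshold (1.58), with 1094 genes called there and 31 in WT against Ctr. Fits on only the 2 groups compared called 683 genes in DMD against Ctr and 586 in WT against Ctr, where Nos1 (-1.14) passed. In macrophage-poor sections (added after seeing the data) 470 genes were called in DMD against Ctr and 286 in DMD against WT, where Nos1 (-0.89) and Sntb1 (1.93) missed. The cause of these moves was not tested.

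With a replicate block, Sntb1 in DMD against Ctr (1.28), Sntb2 in DMD against WT (1.88) and Nos1 in WT against Ctr (-1.15) passed, and 3890, 4063 and 798 genes were called. Deviations of same-numbered muscles correlated at 0.00604 to 0.189, so the numbers were not taken as pairs. The block changed no other call of a member.

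Among section contrasts, signs reversed for effects near 0. With the top 10%, Sntb1 was -0.16 in tendon and -0.21 in macrophage-marker-rich sections, Nos1, Sntb1 and Dtna were -0.0799, -0.10 and -0.0146 in slow-marker-rich sections, and Sntb2 was -2.11 at the ends. With the top 30%, Sntb2 was 0.69 in tendon-marker-rich sections and -0.0207 at the ends. Without the filter Sntb1 was -0.0189 in slow-marker-rich sections. Leaving out 1 muscle gave Nos1 -0.0714 to 0.0166 (synaptic), -0.0212 to 0.16 (tendon) and -0.0208 to 0.15 (ends), Sntb2 -1.08 to 0.35 (synaptic) and -1.65 to 0.74 (tendon), and Sntb1 -0.22 to 0.25 (macrophage) and -0.0550 to 0.0577 (slow). Sntb1 at the Ctr ends was -1.66 with 10%, -1.08 with 30%, and -2.64 to -1.26 with 1 muscle left out.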
